A study of Homo sapiens with 6 samples.

Results

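The miR-17-92 cluster and its paralogs, the miR-106a-363 and miR-106b-25 clusters, were followed through their dominant mature arms in HuCCT1 cells with and without TGF-β. HuCCT1 is an established human cholangiocarcinoma (CCA) cell line, and TGF-β is a cytokine that induces epithelial-mesenchymal transition (EMT). The 10 members were chosen by name, as the probes for hsa-miR-17-5p, hsa-miR-18a-5p, hsa-miR-19a-3p, hsa-miR-19b-3p, hsa-miR-20a-5p, hsa-miR-92a-3p, hsa-miR-106a-5p, hsa-miR-106b-5p, hsa-miR-93-5p and hsa-miR-25-3p, out of 2555 human miRNA probes on the array. Of these, 8 were expressed, meaning that 1 group or both had all 3 of its arrays above detection, and so were 322 of all human probes. Control cells received TGF-β at 0 ng/ml and treated cells at 10 ng/ml, each for 72 h and each measured on 3 arrays, with no other treatment named in the labels. All arrays came from 1 cell line, and nothing in the labels says that the replicates were separate cultures, so the p-values measure only the spread between these samples, which may be technical. In such bulk RNA, fewer cells carrying a miRNA and less of it per cell cannot be told apart.

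The miR-17-92 cluster is transcribed as 1 primary RNA that is cut into several precursor hairpins, and it is known as an oncogenic locus switched on by MYC and by E2F factors. A mature miRNA finds its target mRNAs mainly through its seed, bases 2 to 8 from the 5′ end, so members of different clusters with a common seed share most predicted targets. In many epithelial tumours these miRNAs are abundant and repress inhibitors of growth and survival, among them the cell cycle inhibitor CDKN1A, the apoptosis factor BCL2L11 and the receptor TGFBR2. The last of these is part of the receptor for TGF-β itself.

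The mature sequences are shown because the comparisons by seed and by base composition turn on them. They are RefSeq sequences of build GRCh38.p14, written 5′ to 3′ with the seed in capitals, and all 10 members matched by name. The miR-17 seed group holds 5 members, whose best known targets include CDKN1A and TGFBR2.
hsa-miR-17-5p: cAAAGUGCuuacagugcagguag
hsa-miR-20a-5p: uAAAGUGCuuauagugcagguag
hsa-miR-106a-5p: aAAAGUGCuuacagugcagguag
hsa-miR-106b-5p: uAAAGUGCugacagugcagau
hsa-miR-93-5p: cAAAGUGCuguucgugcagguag
The miR-18 group holds 1 member, the miR-19 group holds 2, and the miR-92 group, known for BCL2L11, holds 2.
hsa-miR-18a-5p: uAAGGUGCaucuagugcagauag
hsa-miR-19a-3p: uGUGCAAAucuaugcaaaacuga
hsa-miR-19b-3p: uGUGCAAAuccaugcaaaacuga
hsa-miR-92a-3p: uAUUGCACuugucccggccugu
hsa-miR-25-3p: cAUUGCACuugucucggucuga

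With positions counted from 1 at the 5′ end and the first-named miRNA's base given first, miR-17-5p and miR-106a-5p differed by 1 substitution, C1A. miR-17-5p and miR-20a-5p differed by C1U and C12U, and miR-17-5p and miR-93-5p by U10G, A11U, C12U and A13C. miR-19a-3p and miR-19b-3p differed by U11C, and miR-92a-3p and miR-25-3p by U1C, C14U, C18U and U22A. How far a probe takes up a relative that differs by so few bases was not tested, so the signals of close relatives may not be independent of each other.

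The members come from 3 loci. The miR-17-92 precursors lie at chr13:91350605-91351391 on the plus strand, a span of 787 bases inside the lncRNA gene MIR17HG. The miR-106a-363 precursors lie at chrX:134169378-134170278 on the minus strand, within the lncRNA gene MIR106AHG. The miR-106b-25 precursors lie at chr7:100093560-100094074 on the minus strand, inside the span of MCM7, which encodes a subunit of the replicative helicase. Mature miR-19b-3p and miR-92a-3p have identical copies at 2 loci each, on chromosomes 13 and X, so their signals cannot be assigned to a locus, and they are counted below with miR-17-92.

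No member passed the test for a change with TGF-β. When limma was run on the 322 expressed miRNAs and its p-values were adjusted by Benjamini-Hochberg, 0 of the 8 expressed members passed an adjusted p of 0.05 (adjusted p = 0.99 for each), against 0% of all expressed miRNAs. At an unadjusted p under 0.05, limma gave 0 members, against 6.52% of expressed miRNAs, and the methods' t-test also gave 0. No member had a ratio of TGF-β to control means above 1.5, against 4.66% of expressed miRNAs, or below 0.67, against 2.48%. The groups overlapped for all 8 expressed members, while they did not overlap for 9.94% of expressed miRNAs. The log2 change, TGF-β minus control, lay between -0.29 and 0.26, and 5 of 8 members (62.5%) were below 0 against 48.8% of expressed miRNAs. Their median was -0.08, beside 0.01 over all expressed miRNAs. The median deviation of the members on an array had a spread of 0.16 between arrays of a group (pooled SD). An exact permutation test on 3 arrays against 3 cannot give a p below 0.1.

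Within the miR-17 seed group, miR-17-5p is the member that gives the cluster its name. Its normalized signal (brightness above the blank spots, with each array scaled to a median of 25 over probes that every array detected) was 117, 121 and 120 in control cells and 110, 97.3 and 125 with TGF-β, in the order of the array numbers 1, 2 and 3, as throughout. TGF-β arrays 1 and 2 lay below all controls and TGF-β array 3 lay above them. The means were 120 ± 1.96 and 111 ± 13.95 (SD, n = 3 each), and the log2 change was -0.12 (SE 0.18, 95% interval -0.53 to 0.30, exact permutation p = 0.40).

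miR-20a-5p, its neighbour in the same primary transcript, had signals of 73.9, 82.8 and 81.4 in control cells and 61.1, 64.8 and 93.1 with TGF-β. The same arrays were low and high as for miR-17-5p. The log2 change was -0.14 (SE 0.22, 95% interval -0.64 to 0.35), with means of 79.4 ± 4.77 and 73.0 ± 17.5 (SD, n = 3 each) and an exact permutation p of 0.50.

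miR-106a-5p, the X-chromosome paralog that differs from miR-17-5p by its first base, gave 99.8, 118 and 113 in control cells and 103, 93.1 and 128 with TGF-β. Here TGF-β array 1 lay inside the range of the controls, TGF-β array 2 below it and TGF-β array 3 above it. Its log2 change was -0.04 (SE 0.20, 95% interval -0.49 to 0.42), with an exact permutation p of 0.90. On every array its log ratio to miR-17-5p stayed close to constant (SD 0.089 over the 6 arrays, log2 scale).

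miR-106b-5p, a member of the miR-106b-25 cluster with this seed, gave 24.6, 26.3 and 31.0 in control cells and 15.2, 21.9 and 37.5 with TGF-β. TGF-β arrays 1 and 2 lay below all controls and TGF-β array 3 above, and the treated arrays were spread wider than the controls. The means were 27.3 ± 3.31 and 24.9 ± 11.4 (SD, n = 3 each), and the log2 change was -0.23 (SE 0.32, 95% interval -0.96 to 0.50, exact permutation p = 0.70).

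miR-93-5p, its neighbour in the miR-106b-25 cluster and the member of this seed group with the highest GC content, gave 80.2, 92.6 and 67.4 in control cells and 79.6, 81.6 and 84.6 with TGF-β. All treated arrays lay inside the range of the controls. The log2 change was 0.04 (SE 0.19, 95% interval -0.39 to 0.48, exact permutation p = 0.80). Over the 5 members of the miR-17 seed group the median log2 change was -0.12, and 4 of the 5 were below 0.

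In the miR-19 seed group, miR-19b-3p had the lowest log2 change among the members. Its signal was 31.3, 31.2 and 44.8 in control cells and 24.7, 19.6 and 49.0 with TGF-β. Array 3 was the highest of each group, and TGF-β arrays 1 and 2 lay below all controls. The means of 35.8 ± 7.81 and 31.1 ± 15.7 (SD, n = 3 each) differed by less than the spread between arrays, and the log2 change was -0.29 (SE 0.34, 95% interval -1.08 to 0.49, exact permutation p = 0.50). Its relative miR-19a-3p did not count as expressed. Its signal before any lowest value was set was 1.96, 2.29 and 2.34 in control cells and -4.06, 0.50 and 3.21 with TGF-β, and it passed detection only on control arrays 1 and 3.

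miR-18a-5p, which with miR-18b-5p forms the miR-18 group, was also not expressed by the rule. Its signals were 3.85, 2.06 and 1.82 in control cells and -1.35, -0.25 and 4.97 with TGF-β, detected on control array 1 and TGF-β array 3 only. No fold change is given for miR-18a-5p or miR-19a-3p, since most of their arrays were below detection. Probes differ in brightness for the same amount of RNA, so a dim probe does not rank a member below its cluster neighbours.

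The miR-92 seed group had log2 changes above 0. miR-92a-3p gave 18.8, 24.8 and 13.97 in control cells and 22.2, 23.8 and 18.8 with TGF-β. All treated arrays lay inside the range of the controls, of which control array 3 was the lowest. Its log2 change was 0.20 (SE 0.25, 95% interval -0.36 to 0.77, exact permutation p = 0.60).

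miR-25-3p, from the miR-106b-25 cluster, gave 20.7, 22.7 and 15.4 in control cells and 21.3, 23.9 and 24.5 with TGF-β. TGF-β arrays 2 and 3 exceeded every control and TGF-β array 1 did not. With means of 19.6 ± 3.81 and 23.2 ± 1.68 (SD, n = 3 each) and a log2 change of 0.26 (SE 0.21, 95% interval -0.22 to 0.74), its exact permutation p was 0.20. It had the lowest limma p of the members, at rank 75 of the 322 expressed miRNAs.

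**Figure D1:**
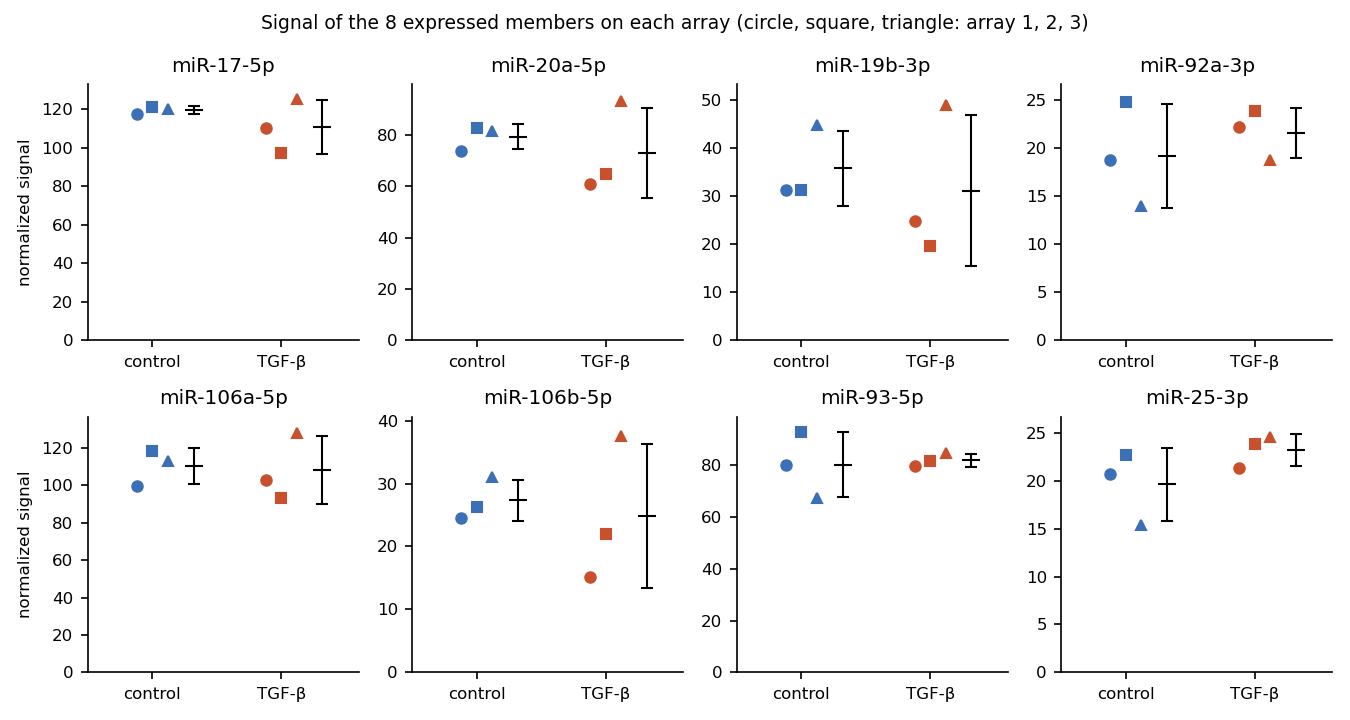
Normalized signal (linear axis from 0, no unit) of the 8 expressed members in control (blue) and TGF-β (red) cells, with circle, square and triangle for arrays 1, 2 and 3 and the black bar for mean ± SD (n = 3). The groups overlap in every panel, and the triangle of TGF-β array 3 is the highest point for miR-17-5p, miR-20a-5p, miR-19b-3p, miR-106a-5p, miR-106b-5p and miR-25-3p.

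The clusters were then compared as units. The median log2 change was -0.13 over the 4 expressed members counted with miR-17-92 (miR-17-5p, miR-20a-5p, miR-19b-3p and miR-92a-3p) and 0.04 over the 3 members of miR-106b-25, and the miR-106a-363 cluster was represented by miR-106a-5p alone. Because a difference between probes of 1 array does not depend on how that array is scaled, the mean log2 signal of miR-106b-25 minus that of miR-17-92 was taken within each array, relative to its mean over arrays. It was 0.0055, 0.00074 and -0.18 in control cells and -0.10, 0.22 and 0.05 with TGF-β. The groups overlapped, and the difference of 0.11 between them was of the size of the spread between arrays of a group (SD 0.10 for control and 0.16 for TGF-β). Taken between arrays of the same replicate number, which are treated as paired, the treated array minus its control gave -0.11, 0.22 and 0.22 (mean 0.11, SD 0.19), so the pairs did not share a sign. Chips were read from the names of the deposited scans. On chip 1 alone, which held every control and TGF-β array 1, the difference between groups was -0.04.

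Grouped by seed, the median log2 change was -0.12 for the miR-17 group, -0.29 for miR-19b-3p and 0.23 for the miR-92 group. The within-array difference of the miR-92 group minus the miR-17 group was -0.03, 0.08 and -0.55 in control cells and 0.32, 0.38 and -0.20 with TGF-β. The groups overlapped, array 3 was the lowest of each, and the difference between groups was 0.33 against SDs of 0.34 and 0.32. Between arrays of the same replicate number, the treated array was higher in 3 of 3 pairs, by 0.35, 0.30 and 0.34 (SD 0.027). Set against miR-19b-3p, the treated array was also higher in 3 of 3 pairs for the miR-92 group (0.48, 0.68 and 0.42). The same held for the miR-17 group against miR-19b-3p (0.14, 0.38 and 0.08). How often other sets of miRNAs share a sign over 3 pairs was not counted. The labels do not say what a replicate number marks, and the paired values are given as a description, with no test. Among the 28 pairs of expressed members, the log ratio of 2 did not overlap between groups (7.14%, against 10.6% of the 51681 pairs of expressed miRNAs). These were miR-25-3p over miR-17-5p, higher with TGF-β by 0.38, and miR-25-3p over miR-93-5p, higher by 0.22, both named after their values were seen.

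**Figure D2:**
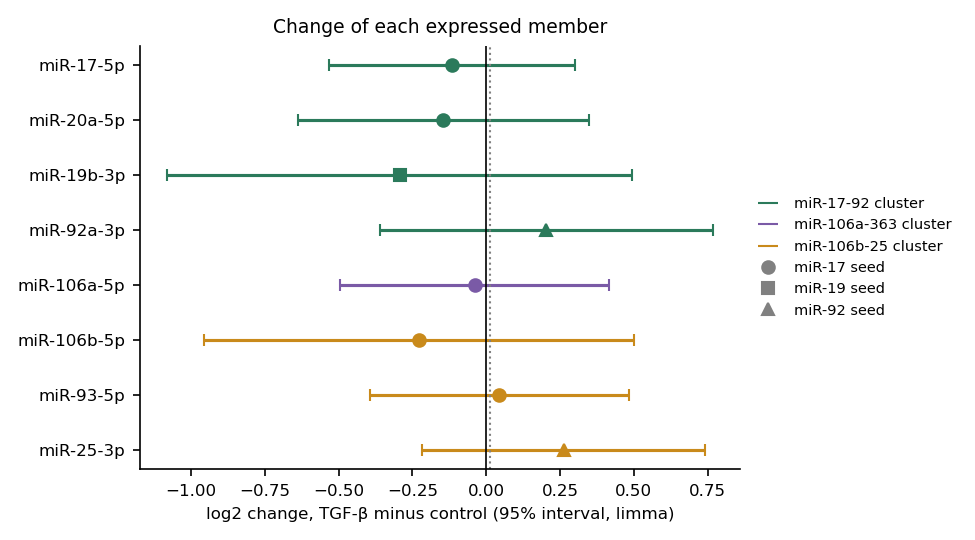
Log2 change of each expressed member, TGF-β minus control, with its 95% interval from limma (n = 3 arrays per group), coloured by cluster and with circle, square and triangle for the miR-17, miR-19 and miR-92 seeds. Every interval crosses 0, and the dotted line marks the median of all 322 expressed miRNAs (0.01).

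From array to array the members varied in 2 blocks. The description that follows was chosen after the values were seen, and its correlations are over 6 arrays that share scaling, hybridization and chips. Among the 5 expressed members with a GC content under 50% (miR-17-5p, miR-20a-5p, miR-19b-3p, miR-106a-5p and miR-106b-5p), Pearson's r of the log2 signals ran from 0.63 to 0.94 over 10 pairs. Among the 3 members of 50% GC or more (miR-92a-3p, miR-93-5p and miR-25-3p) it ran from 0.80 to 0.86 over 3 pairs. Between the blocks it ran from -0.72 to 0.19 over 15 pairs. The cut at 50% parts members of close GC content, with miR-17-5p at 47.8% and miR-25-3p at 50%. Over all pairs of expressed miRNAs the median r was 0.03, the range from the 10th to the 90th percentile was -0.69 to 0.72, and 6.30% lay above 0.80.

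The blocks did not follow locus, and they followed seed only in part. Both miR-92 seed members were in the high-GC block, and the miR-17 seed members other than miR-93-5p were in the low-GC block. That block also held miR-19b-3p, which has another seed. Its r with the miR-17 seed members there ran from 0.81 (miR-106b-5p) to 0.89 (miR-17-5p). miR-93-5p carries the miR-17 seed but moved with miR-92a-3p and miR-25-3p, which have another seed. miR-106b-5p lies in the same cluster as miR-93-5p and miR-25-3p but moved with the low-GC members of the other clusters. Pairs with a common seed spanned r from -0.04 to 0.94 (11 pairs, median 0.71), and pairs of the same cluster with different seeds from -0.72 to 0.89 (7 pairs, median -0.10).

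By array, the mean deviation of the low-GC block from its own mean over 6 arrays was -0.03, 0.07 and 0.21 in control cells and -0.31, -0.32 and 0.37 with TGF-β (log2 scale). That of the high-GC block was -0.05, 0.20 and -0.41 in control cells and 0.05, 0.15 and 0.06 with TGF-β. The first block was thus low on TGF-β arrays 1 and 2 and highest on TGF-β array 3, and the second was low on control array 3.

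**Figure D3:**
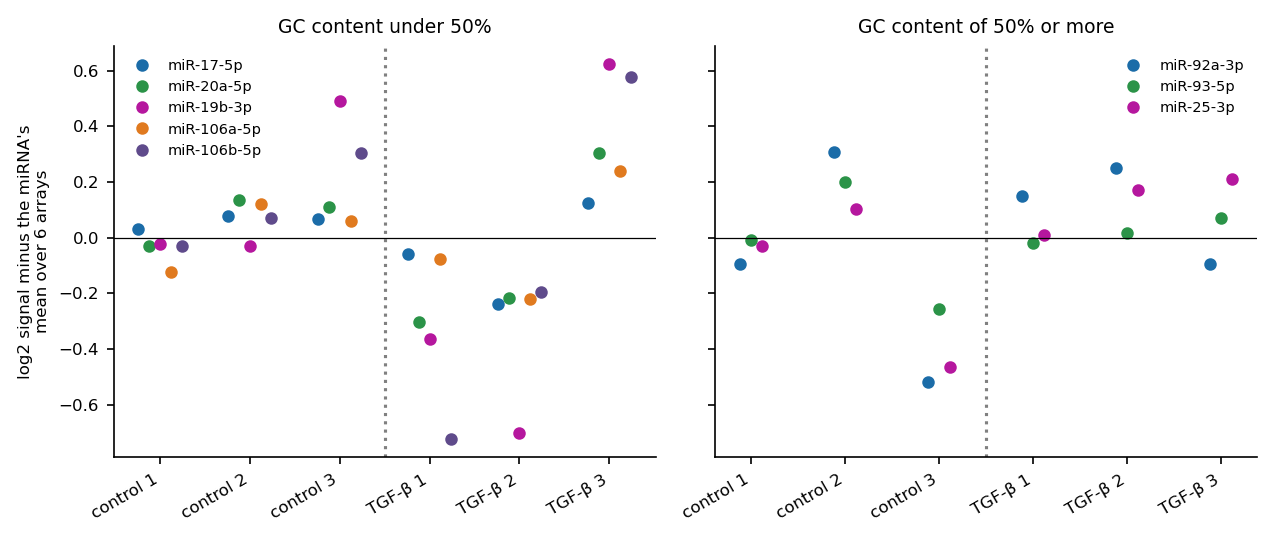
Log2 signal of each expressed member on each array, as its deviation from the mean of that miRNA over the 6 arrays, for members under 50% GC (left) and of 50% GC or more (right), with a dotted line between the control and TGF-β arrays. All 5 members on the left are below 0 on TGF-β arrays 1 and 2 and above 0 on TGF-β array 3, and all 3 on the right are lowest on control array 3.

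The correlations that set the blocks were taken over control and TGF-β arrays together. They thus include the difference between groups, and the change with treatment by block is not a separate observation. The median log2 change was -0.14 in the low-GC block, where all 5 values were below 0, and 0.20 in the high-GC block, where all 3 were above 0. The high-GC block minus the low-GC block, taken within each array, was -0.01, 0.13 and -0.62 in control cells. With TGF-β it was 0.35, 0.46 and -0.31, and the groups overlapped. Treated array minus the control of the same number, this difference was 0.36, 0.33 and 0.31 for numbers 1, 2 and 3. These paired values are a description of blocks chosen after the values were seen, with no test. Across the 8 members the log2 change and the GC content had Pearson's r of 0.83. Over the 276 of 322 expressed miRNAs with a GC value (85.7%) the relation had the opposite sign, with r of -0.21, and the median log2 change was 0.07 under 50% GC (63 miRNAs) and -0.01 at 50% or more (213 miRNAs). The arrays themselves differed in this respect: the slope of log2 deviation per 10% of GC was -0.11 on TGF-β array 3 and between -0.01 and 0.05 on the other 5. After a straight line of GC content was subtracted on each array, the log2 changes ran from -0.39 for miR-19b-3p to 0.21 for miR-25-3p. Whether base composition has a part in the blocks was not tested.

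**Figure D4:**
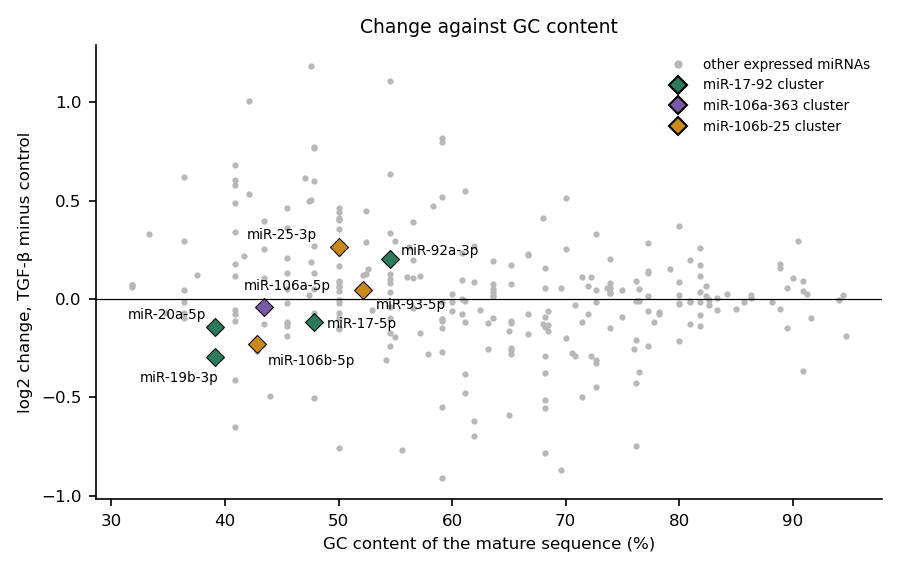
Log2 change, TGF-β minus control, against the GC content of the mature sequence, for the 8 expressed members (diamonds coloured by cluster) and the other expressed miRNAs with a GC value (grey points). The 5 members under 50% GC lie below 0 and the 3 of 50% or more above 0. This division was chosen after the values were seen. The median over all expressed miRNAs with a GC value is 0.07 under 50% GC and -0.01 at 50% or more.

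The rest of the 3 loci was mostly below detection. Of the 12 other arms of the member hairpins, the strands that are usually discarded, 11 were not detected on any array and miR-92a-2-5p was detected on 2. Of the 6 other mature miRNAs of the miR-106a-363 cluster, 1 was expressed, miR-20b-5p, which has the miR-17 seed. Its signal was 67.7, 74.4 and 54.9 in control cells and 49.9, 58.0 and 82.3 with TGF-β. TGF-β array 1 lay below all controls and TGF-β array 3 above them, and the log2 change was -0.07 (SE 0.24, 95% interval -0.62 to 0.48, exact permutation p = 0.90).
hsa-miR-20b-5p: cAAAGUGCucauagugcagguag
It differs from miR-17-5p by U10C and C12U, and its r with the members ran from 0.12 (miR-92a-3p) to 0.79 (miR-20a-5p) over the 6 arrays. At 47.8% GC it did not keep to the low-GC block, since its r was also 0.63 with miR-93-5p and 0.50 with miR-25-3p, above every value between the blocks of members. miR-18b-5p was detected on 2 control arrays, and the other 4 on none. Of 5 miRNAs outside the clusters that share a seed with a member, miR-92b-3p was detected on 2 arrays and the others on none. In limma, 0 of these 23 relatives passed the adjusted p in either direction, with miR-20b-5p the only one tested (adjusted p = 0.99, unadjusted p = 0.77).

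Outside the family and its relatives, the 5 miRNAs detected on all arrays whose log2 signal was most like the mean of the members, out of 283 compared over 6 arrays, were let-7g-5p (r = 0.93), miR-491-5p (0.93), miR-16-5p (0.91), miR-30e-5p (0.88) and miR-4634 (0.87). Over all 283 the median r was -0.10 and the range from the 10th to the 90th percentile was -0.85 to 0.67, so r runs wide at 6 arrays. Their log2 changes were -0.02, -0.10, 0.05, -0.41 and -0.19, and none passed the adjusted p in limma.

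The arrays differed in background and in placement. Between 327 and 464 human probes were detected per array, and the mean brightness of the blank spots was 29.5 to 54.8 for controls and 42.5 to 82.3 for TGF-β. The sample labels name no chip, and an identifier in the name of each deposited scan was taken as its chip. By it, chip 1 held every control and TGF-β array 1, and chip 2 held the remaining treated arrays. All expressed members stood well clear of the blanks, at 8.27 to 129 SD above their mean. Of the epithelial markers, all 5 miRNAs of the miR-200 group were detected and 4 of them on every array, with a summed signal of 329 to 367.5 in control cells and 406 to 454 with TGF-β. That sum was carried by miR-200c-3p (log2 change 0.40) and miR-200b-3p (0.30), while miR-200a-3p stood at -0.08, miR-141-3p at -0.65 and miR-429 at 0.05, none past the adjusted p in limma, and their part in the members' values was not tested. The hepatocyte marker miR-122-5p, the 2 stromal markers and the 2 muscle markers on the array were not detected. Of 5 blood markers, miR-223-3p was detected on TGF-β array 3 only, with a signal of 12.4, on the array where the low-GC block was highest; its part in that was not tested.

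The direction of a single member depended on the array and the scaling. Without TGF-β array 3, the log2 change of miR-19b-3p was -0.72 and that of miR-106b-5p -0.62, both past the ratio of 0.67, with limma adjusted p of 0.27 and 0.34. On chip 1 alone, with TGF-β array 1 as the only treated array and its spread assumed to be that of the controls, miR-106b-5p stood at -0.91 and miR-19b-3p at -0.58 (limma adjusted p = 0.55 and 0.62). Under 22 other settings, miR-20a-5p and miR-19b-3p stayed below 0 in all, and miR-25-3p stayed above 0 in all 21 that could test it. Some of the 22 could not turn a direction. The filters on dim probes, the other variance model, the methods' t-test and the replicate block leave a tested member's log2 change as it was. The 22 settings leave out 3 others, in which the local background beside the spots or no scaling was used and directions turned. miR-93-5p was below 0 in 8 of the 22.

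**Figure D5:**
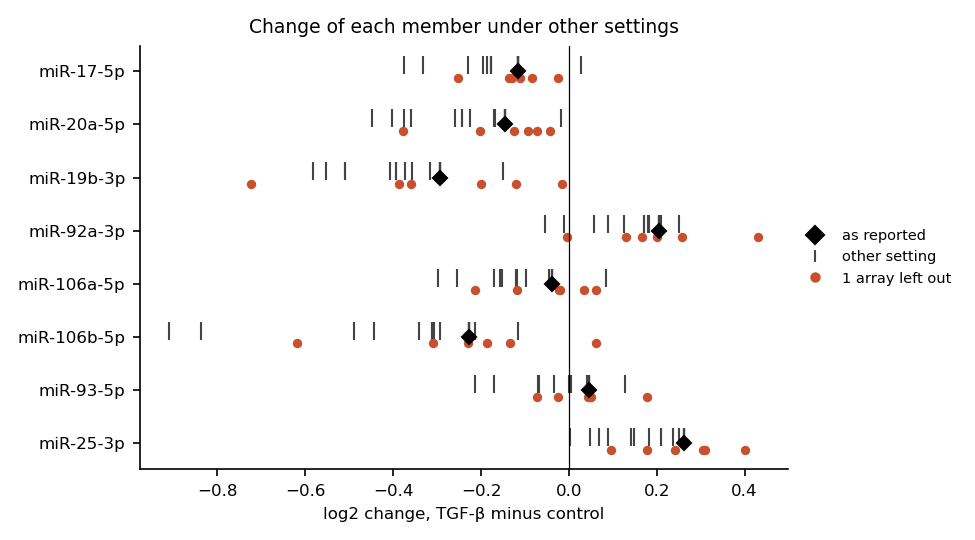
Log2 change of each expressed member as reported (diamond), under other processing settings (tick marks) and with 1 array left out (red dots), without the settings that use the local background or no scaling. All marks of miR-20a-5p and miR-19b-3p lie below 0, those of miR-25-3p above 0, and those of the other 5 members on both sides.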

How the data were processed

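RNA of each sample was labelled with Cy5 and hybridised to a 1-colour 3D-Gene array. The authors deposited, per array, the scanner's spot intensity with a local background, not normalized, and a table of normalized intensity values with a median of 25 per array. The members and lists were chosen with earlier results of these data known. The named miRNAs are all 10 members, any expressed relative, and the 5 miRNAs most like the mean of the members.

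Each array has 229 blank spots, whose mean was subtracted from every spot, and detection meant exceeding that mean by 2 SD. Arrays were scaled to a median of 25 over the 292 probes detected on all 6, undetected probes were given the array's lowest detected value, and log2 was taken. Between 0 and 2 flagged human spots per array were treated as missing. Groups were compared with limma 3.58.1 in R 4.3.3 (lmFit and eBayes, no block), p-values were adjusted by Benjamini-Hochberg over 322 miRNAs, and single miRNAs were compared by a 2-sided exact permutation test. Ratios are of arithmetic means. The number of arrays limits the precision. On simulated data of the 322 miRNAs, limma recovered 66.4% of 2-fold and 2.73% of 1.5-fold changes.

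Deviations of arrays with the same replicate number in both groups correlated by 0.12, 0.24 and 0.33 over 322 miRNAs for replicates 1, 2 and 3, which was taken as a pairing, although the labels do not say what a number marks. Alternatives were the authors' normalized values, 3 other background corrections, 5 other scalings, 2 filters on dim probes, another variance model, the methods' t-test, the replicate number or chip as a block, chip 1 alone, GC correction and leaving out each array. Of these, no scaling, normexp on the spot alone and the GC corrections were chosen after seeing the data. The sequence of miR-106a-3p was not used here.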

Additional observations from a re-analysis of the deposited data

How the results depend on the processing

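No expressed member passed the adjusted p in limma under any of 25 other settings, the methods' t-test included, with the lowest adjusted p, 0.27, for miR-19b-3p without TGF-β replicate 3. At an unadjusted p under 0.05, limma gave 1 member with the local background, with normexp on it, with chip as a block and on chip 1 alone, and 2 without TGF-β replicate 3. The replicate block, alone or with GC correction, changed no call: with the block the adjusted p ran from 0.83 to 0.98 and 0 members passed. Medians are log2 changes in the order all members, miR-17-92, miR-106b-25, miR-17 seed, miR-19b-3p, miR-92 seed. With the authors' normalized values they were -0.34, -0.39, -0.21, -0.37, -0.55 and -0.026 and the median of all expressed miRNAs was -0.27; miR-92a-3p was at -0.054 and miR-93-5p at -0.21. With each array's own detected probes, the first 4 were -0.29, -0.35, -0.17 and -0.33, with miR-92a-3p at -0.011 and miR-93-5p at -0.17. miR-93-5p was also below 0 with the 75th percentile (-0.069), centred ratios (-0.035), quantile normalization (-0.00016) and chip 1 alone (-0.068).

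Without scaling (chosen after seeing the data) the medians were 0.57, 0.51, 0.69, 0.53, 0.35 and 0.88 and that of all expressed miRNAs was 0.66, with 3 members above 1.5; miR-17-5p, miR-20a-5p, miR-19b-3p, miR-106a-5p and miR-106b-5p stood at 0.53, 0.50, 0.35, 0.60 and 0.41. The local background was 88.9% of a member's spot brightness in the median and at or above the spot for 9 of 48 spots. With it subtracted, the medians were 0.38, 0.44, -1.86, 0.94, 1.06 and -1.52, the within-array difference of miR-106b-25 minus miR-17-92 was -1.74, 2 members were above 1.5 and 3 below 0.67, and miR-17-5p, miR-19b-3p, miR-92a-3p, miR-106a-5p, miR-106b-5p, miR-93-5p and miR-25-3p stood at 1.70, 1.06, -0.19, 6.32, 0.94, -1.86 and -2.84. With normexp on the local background, the miR-92 seed median was -0.043, the within-array difference was -0.032, and miR-19b-3p, miR-106a-5p, miR-106b-5p, miR-93-5p and miR-25-3p stood at 0.065, 0.56, 0.081, -0.062 and -0.12. With normexp on the spot alone, miR-17-5p was at 0.027 and miR-106a-5p at 0.084.

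On chip 1 alone, 2 members were below 0.67, miR-19b-3p and miR-106b-5p, and the miR-17-92 median was -0.32; there and with chip as a block the within-array difference was -0.043. Leaving out each array in turn gave 0 to 1 members above 1.5 (miR-19a-3p without control replicate 2, where it was detected on no TGF-β array, so that its ratio sets the arrays' lowest detected values against the controls and is no measured fold), 0 to 2 below 0.67 (miR-19b-3p and miR-106b-5p without TGF-β replicate 3), and a miR-17-92 median of -0.32 to -0.021. It turned the direction of miR-106a-5p (range -0.21 to 0.061, above 0 without control replicate 2 or TGF-β replicate 2), miR-92a-3p (-0.0048 to 0.43, below 0 without control replicate 3), miR-93-5p (-0.073 to 0.18, below 0 without control replicate 3 or TGF-β replicate 3) and miR-106b-5p (-0.62 to 0.062, above 0 without TGF-β replicate 1). Over all expressed miRNAs, 1 passed the adjusted p with the methods' t-test and 1 without TGF-β replicate 3, neither of them a member. Why directions turned was not tested beyond the shift of all miRNAs that the scaling gives. A mean signal of at least 25 left miR-92a-3p and miR-25-3p untested.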
